A study of Mus musculus with 31 samples.

Results

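Axon guidance genes that vessels and blood cells also use were followed through 31 mouse RNA-seq libraries: the ephrins and Eph receptors, the semaphorins and plexins, the Slit and Robo genes, and the netrins and Unc5 receptors. Every gene of both deposited tables whose symbol belongs to one of these families was taken, which gave 66 of 20314 genes: 8 ephrins, 14 Eph receptors, 20 semaphorins of classes 3 to 7, 9 plexins, 3 Slit genes, 4 Robo genes, 4 netrins and 4 Unc5 genes. The genes were taken by symbol alone, but the families were chosen with earlier results of these data known. The guidance systems are ligands and receptors that let a cell sense its neighbours or a gradient and then extend, retract or stay apart. Ephrins are bound to the membrane and signal between touching cells, semaphorins act through plexins and often need a neuropilin as co-receptor, Slit proteins act through Robo receptors, and netrins through Dcc or Unc5 receptors. In the vasculature these families are known for the separation of arteries from veins, the steering and pruning of sprouts and the tightness of the endothelial layer, and some semaphorins also act between immune cells.

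The study followed expandable hemangioblasts (eHBs), progenitors that can be grown in culture and turned into endothelium or blood. Embryonic stem (ES) cells of lines RB2, RB3 and RB4 (3 libraries) grew on Matrigel in N2B27 medium with CHIR99021, PD0325901 and LIF. Kdr-positive mesoderm (3) was sorted from the same ES lines at day 4, the medium having held Activin A, CHIR99021, BMP4 and FGF2 since the first days had passed. The 5 eHB lines, 1 library each, all received 2 µg/mL doxycycline. The ES-derived pair, RB3.6.5 and RB4.6.9, was kept with VEGF, 8-bromo-cAMP, SB431542, BMP4 and FGF2. The fibroblast-derived line M5 and the fetal liver-derived lines FL4 and FL10 had FGF2 as their other additive, so that origin and medium cannot be told apart. Each line was also turned toward blood without doxycycline, in CHIR99021, SCF, IL-3 and Flt3L at 1.5% oxygen, and sorted as VE-cadherin-positive, CD45-negative cells at day 2 (5) or as VE-cadherin-positive, CD45-positive cells at day 3 (5). A single library of uncultured E14.5 hematopoietic stem cells (HSCs) was sorted as CD45-positive, CD201-positive, CD150-positive and CD48-negative. Endothelial cultures (5) were lysed unsorted after 3 days without doxycycline in VEGF, 8-bromo-cAMP, SB431542, BMP4 and FGF2, the medium that the RB3.6.5 and RB4.6.9 eHB lines already had apart from the drug. Uncultured VE-cadherin-positive, Pecam1-positive endothelium was sorted from the yolk sac (2) and from the embryo (2) at E11.5.

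Library totals ran from 9424412 to 79497758 expected counts. Most labels matched their marker lists. The summed level of 6 endothelial genes was 4920 to 6890 TPM (the authors' transcript abundance, scaled for transcript length and library) in the endothelial cultures, 4770 to 5560 in yolk sac and 4220 to 5020 in embryo endothelium. The 5 leukocyte genes summed to 2200 to 3320 TPM in day 3 blood and 323 to 1090 in day 2 blood. Yolk sac libraries also held RNA of other cells. Their 6 visceral endoderm and epithelial markers summed to 8470 to 8690 TPM, against 4.67 to 10.7 in embryo endothelium. The 5 erythroid genes summed to 2250 to 43100 TPM in day 2 blood, 256 to 8520 in day 3 blood, 3790 to 8120 in yolk sac and 1790 to 20900 in embryo endothelium. They reached 1500 TPM in the M5 endothelial culture, the highest of its group. In comparisons of whole profiles within day 3 blood, the RB3.6.5 library stood apart (mean chi-square over genes of at least 351 against each of the other lines, and of 27.9 to 178 among those).

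Values of the eHB lines and their progeny are listed in the order RB3.6.5, RB4.6.9, M5, FL4 and FL10, those of ES cells and mesoderm in the order RB2, RB3 and RB4. Differences are given as log2 fold change ± SE from edgeR's quasi-likelihood test on counts, with p-values adjusted by Benjamini-Hochberg over all genes tested and 0.05 as the threshold for a call. The replicates are separate lines or sorted samples, and the p-values measure only the spread between them.

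The summed level of the 66 genes separated endothelium from every other group. It was 639.5 to 894.7 TPM in eHBs, 202.4 to 565.1 at day 2 and 232.0 to 289.6 at day 3 of the blood cultures, 481.6 in HSCs, 2918 to 3916 in endothelial cultures, 3045 to 3701 in yolk sac endothelium and 2780 to 3906 in embryo endothelium. ES cells held 790.6 to 911.0 TPM and mesoderm 920.9 to 1078. Of the 66 genes, 10 averaged 100 TPM or more in endothelial cultures, 8 in yolk sac and 7 in embryo endothelium, against 2 in ES cells, 1 each in mesoderm and eHBs and none in either kind of blood culture or in HSCs. Sema4b, Sema4c, Sema4d, Plxna1, Plxnb2, Epha2 and Ephb4 reached 1 TPM in all 31 libraries. Epha3, Epha5, Epha6, Epha8, Robo2, Sema3d and Unc5d stayed below 1 TPM in all of them.

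**Figure D1:**
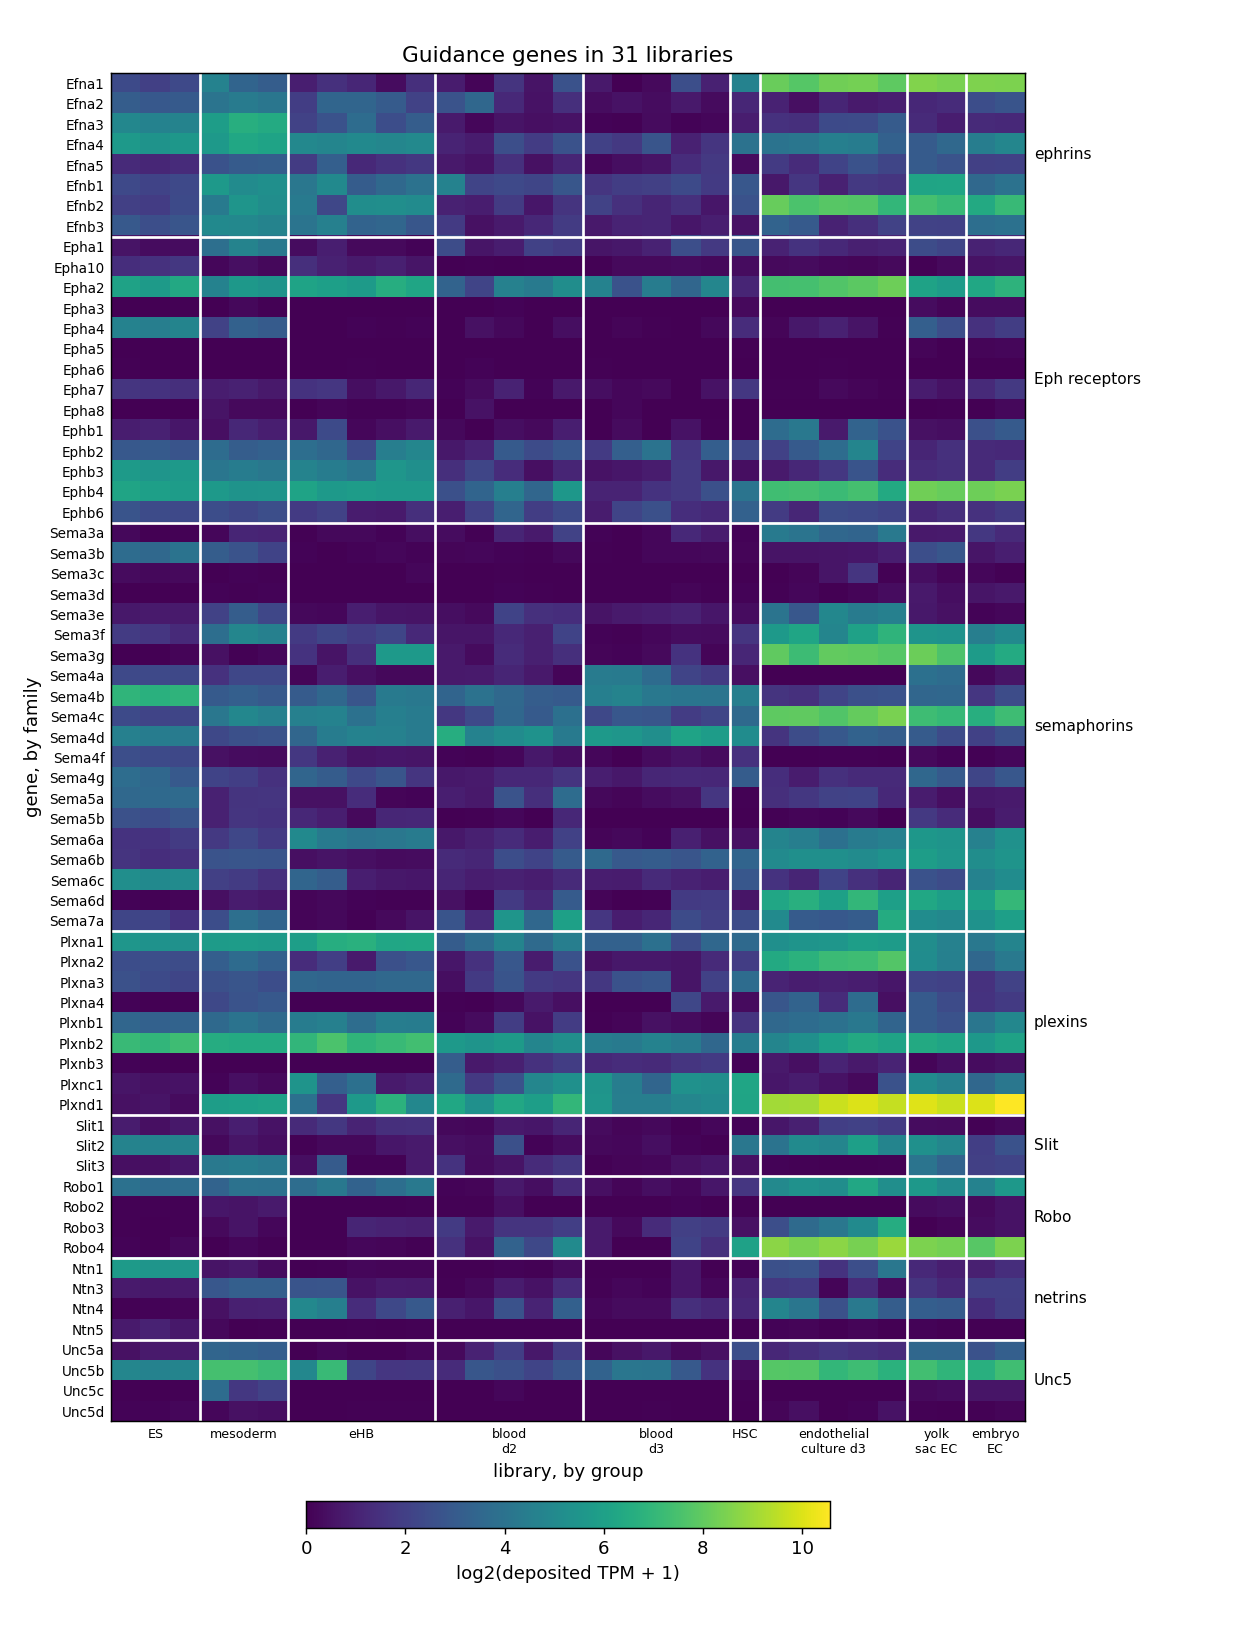
Levels of the 66 guidance genes (vertical axis, by family) in 31 libraries (horizontal axis, by group), as log2 of the deposited TPM plus 1, with lighter colours for higher levels. The endothelial cultures and both kinds of sorted endothelium share bright bands at Efna1, Efnb2, Ephb4, Sema3g, Sema4c, Plxnd1, Robo4 and Unc5b, and the blood columns are darker, with Sema4d, Plxnb2 and Plxnd1 above 10 TPM in all of their libraries.

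Each family had its own leading gene in each kind of cell. Among plexins, Plxnb2, a receptor of class 4 semaphorins, led in ES cells (138.9 TPM on average), mesoderm (88.8) and eHBs (147). Plxnd1, the receptor of Sema3e, led in day 2 blood (76.5), day 3 blood (30.1), endothelial cultures (751), yolk sac (947) and embryo endothelium (1270.0), and Plxnc1, the receptor of Sema7a, in HSCs (72.9). Among semaphorins, Sema4b led in ES cells (112), Sema4c in mesoderm (22.9), eHBs (21.1), endothelial cultures (263) and embryo endothelium (125), Sema3g in yolk sac (244), and Sema4d in day 2 blood (42.4), day 3 blood (51.5) and HSCs (33.9). Efna4 led the ephrins in ES cells (46.5) and eHBs (29.1), Efna3 in mesoderm (81.5), Efnb1 in day 2 blood (8.40) and day 3 blood (2.91), and Efna1 in HSCs (24.8), endothelial cultures (277), yolk sac (360.1) and embryo endothelium (364). The leading Eph receptor was Epha2 in ES cells (66.6), eHBs (69.9), day 3 blood (17.7) and endothelial cultures (218), and Ephb4 in mesoderm (44.9), day 2 blood (18.9), HSCs (15.8), yolk sac (289) and embryo endothelium (321). Of the Slit and Robo genes, Slit2 led in ES cells (25.1), Slit3 in mesoderm (18.7), Robo1 in eHBs (14.2), Robo3 in day 3 blood (1.60) and Robo4 in day 2 blood (9.43), HSCs (65.3), endothelial cultures (406), yolk sac (341) and embryo endothelium (293). Unc5b was the leading netrin receptor or netrin in every group but ES cells, where Ntn1 led (47.5), and HSCs, where Unc5a led (4.87).

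**Figure D2:**
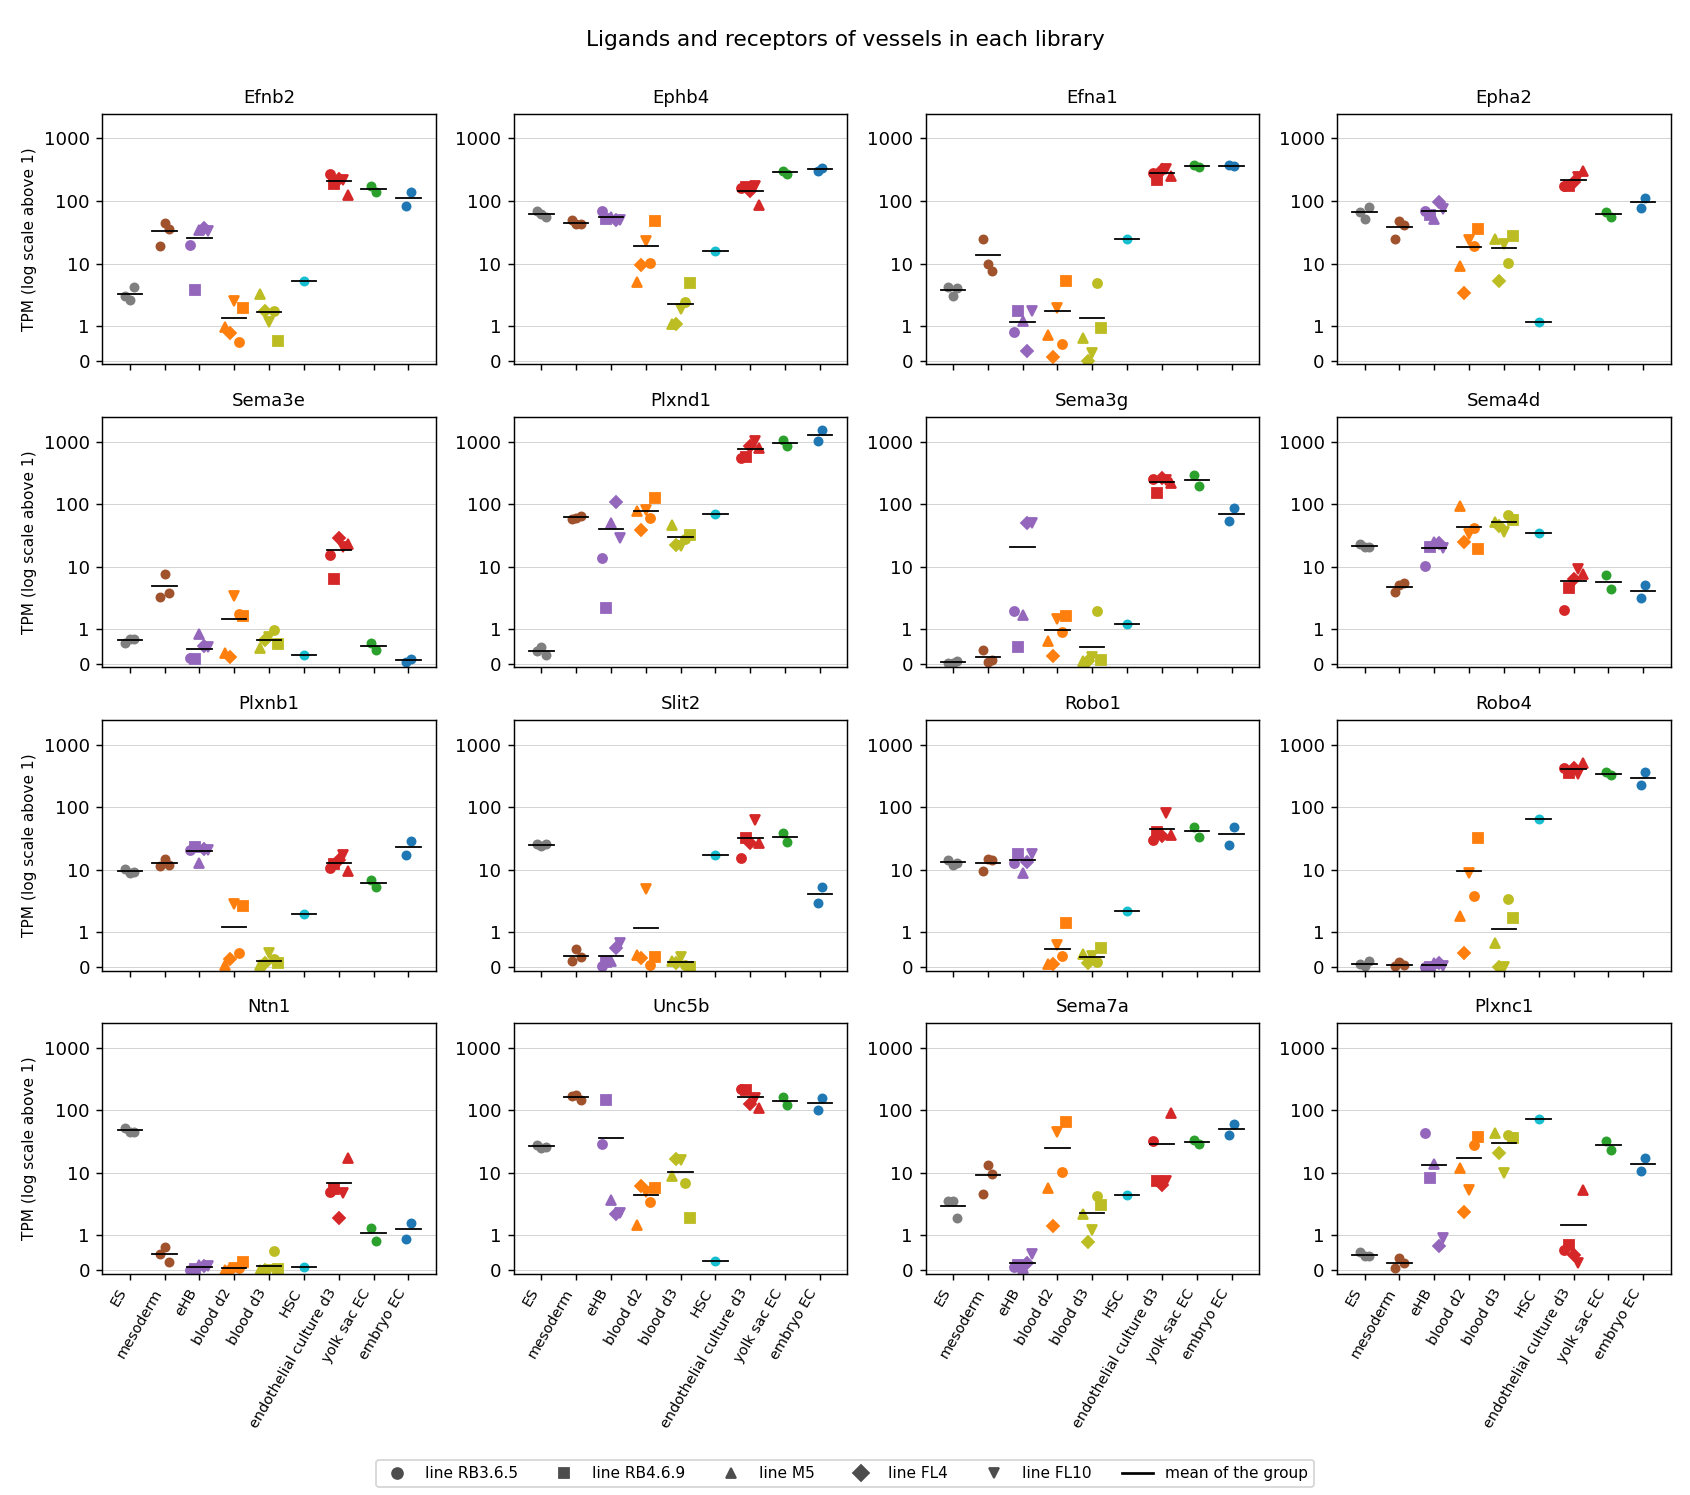
Deposited TPM of 16 ligands and receptors (vertical axis, linear up to 1 and logarithmic above) in each library of the 9 groups (horizontal axis), with the eHB line as the marker shape and the group mean as a bar. Robo4, Efna1, Efnb2 and Plxnd1 are highest in the 3 endothelial groups in all of their libraries, Sema4d lies below all of the blood culture libraries there, and Unc5b, Sema3g, Plxnd1 and Plxnc1 spread widely over the 5 eHB lines.

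For 57 of the 66 genes the RefSeq promoter table of GRCm38.p6 held 73 windows around a gene start. The letters CAGGAAG and CCGGAAG, short forms of the element that ETS factors bind, were searched on both strands. ETS factors are regulators of many endothelial and blood genes. Either motif was in 15.1% of the 73 windows (11), against 20.9% of all 32851 windows. CAGGAAG was in 12.3% against 13.3%, and CCGGAAG in 2.74% against 8.86%. A match is a description of letters, not of a bound site, and a window without one says only that these letters are not in it. The 250 bases upstream of the start are shown for 3 genes that hold the motif (in capitals, on either strand) and whose levels follow different courses. Robo4 was high in endothelium (plus strand, chr9:37401722-37401971). Sema3e was high in endothelial cultures but not in embryo endothelium (plus strand, chr5:14025026-14025275). Sema4d was higher in blood than in endothelium (minus strand, chr13:51756684-51756933, the one of its 3 windows that holds the motif). The match begins at -50 from the start in Robo4, -58 in Sema3e and -128 in Sema4d.
Robo4: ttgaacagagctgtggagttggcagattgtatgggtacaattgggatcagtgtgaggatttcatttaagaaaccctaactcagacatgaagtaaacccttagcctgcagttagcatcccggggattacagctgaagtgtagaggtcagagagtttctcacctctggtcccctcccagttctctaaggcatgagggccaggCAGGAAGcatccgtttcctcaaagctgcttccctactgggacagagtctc
Sema3e: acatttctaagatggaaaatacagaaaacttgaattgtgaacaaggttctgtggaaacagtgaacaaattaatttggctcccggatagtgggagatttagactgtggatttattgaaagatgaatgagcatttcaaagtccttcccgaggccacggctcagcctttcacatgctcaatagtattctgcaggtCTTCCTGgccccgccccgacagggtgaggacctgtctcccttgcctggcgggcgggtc
Sema4d: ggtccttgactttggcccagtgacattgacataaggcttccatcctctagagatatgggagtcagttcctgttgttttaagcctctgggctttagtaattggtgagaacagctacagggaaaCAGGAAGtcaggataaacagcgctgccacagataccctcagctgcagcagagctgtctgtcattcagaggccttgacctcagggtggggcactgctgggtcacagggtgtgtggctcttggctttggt

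Kdr-positive mesoderm was compared with the ES cells it came from, which asks how the guidance genes stand at the step that leads to the vascular lineages. All 8 ephrins and all 4 Unc5 genes were higher in mesoderm, and the receptor Plxnd1 had the largest rise of the 55 members tested, while Ntn1, Slit2 and several class 4 to 6 semaphorins were lower. Of 55 members tested, 32 were higher, 15 lower and 8 passed neither way; 39.1% of all genes tested were higher and 40.0% lower. The median log2 fold change was 0.82 over the members and -0.004 over all genes. A bulk library cannot show whether a lower level means fewer cells of a type or less RNA in each cell.

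Among the ligands, Efnb2, the membrane ligand known from arteries, had 19.2, 45.05 and 35.1 TPM in mesoderm, against 2.98, 2.64 and 4.24 in ES cells (log2 fold change 3.65 ± 0.30, adjusted p = 1.06e-05). Efnb1 had 51.4, 32.9 and 37.2 TPM in mesoderm, against 3.96, 3.36 and 4.05 in ES cells (log2 fold change 3.76 ± 0.23, adjusted p = 9.17e-07). The groups did not overlap for either. The other ephrins had log2 fold changes of 0.82 (Efna4) to 2.63 (Efnb3), and Efna3 reached 81.5 ± 21.1 TPM in mesoderm, against 26.4 ± 1.86 in ES cells (SD, n = 3 each). Slit3, a secreted Robo ligand, had 18.04, 20.5 and 17.5 TPM in mesoderm, against 0.348, 0.334 and 0.554 in ES cells (log2 fold change 5.83 ± 0.18, adjusted p = 1.42e-08). Slit2, its relative, went the other way, with 0.163, 0.529 and 0.296 TPM in mesoderm, against 25.6, 24.3 and 25.3 in ES cells (log2 fold change -5.92 ± 0.24, adjusted p = 9.25e-08). The secreted netrin Ntn1 was likewise nearly absent from mesoderm, at 0.478, 0.662 and 0.235 TPM, against 52.3, 44.6 and 45.5 in ES cells (log2 fold change -6.40 ± 0.24, adjusted p = 6.2e-08). Of 16 semaphorins tested, 7 were higher, among them the secreted Sema3e (3.13) and Sema3f (3.69) and the transmembrane Sema4c (2.90), and 8 were lower. The lower ones included Sema4b, at 6.97, 8.05 and 6.68 TPM in mesoderm, against 119, 102 and 114 in ES cells (log2 fold change -3.62 ± 0.09, adjusted p = 6.52e-09), Sema6c (-3.42), Sema5a (-2.41) and Sema4d (-1.82).

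Among the receptors, Plxnd1 had 57.5, 61.01 and 64.7 TPM in mesoderm, against 0.381, 0.484 and 0.250 in ES cells (log2 fold change 7.67 ± 0.18, adjusted p = 4.48e-09). Plxna4, a partner of neuropilins, had 3.92, 5.47 and 6.61 TPM in mesoderm, against 0.065, 0.022 and 0.043 in ES cells (log2 fold change 7.14 ± 0.32, adjusted p = 1.31e-07). Both were close to 0 in every ES library. The dependence receptor Unc5b stood at 171, 174 and 144 TPM in mesoderm, against 28.1, 25.04 and 26.03 in ES cells (log2 fold change 2.96 ± 0.10, adjusted p = 2.07e-08). Unc5c had 12.2, 2.29 and 3.25 TPM in mesoderm, against 0.054, 0.022 and 0.054 in ES cells (log2 fold change 7.37 ± 1.01, adjusted p = 0.000246), with RB2 well above the other lines. Unc5a rose too (log2 fold change 4.20 ± 0.24, adjusted p = 5.13e-07). The Eph receptor Epha1 had 13.4, 25.6 and 17.5 TPM in mesoderm, against 0.490, 0.291 and 0.261 in ES cells (log2 fold change 6.07 ± 0.29, adjusted p = 1.8e-07). The span of Epha1 overlaps that of Zyx on the opposite strand. As the counting's strand setting is not stated, reads in any sequence they share cannot be told apart. Whether their exons overlap was not checked. The same holds for Unc5a with Hk3, Ephb4 with Zan, Ntn5 with Sec1, and for further members with an annotated gene on the opposite strand: Efna3, Efna4, Epha5, Epha6, Epha7, Epha10, Ephb1, Sema3a, Sema3d, Sema3e, Sema4c, Sema4d, Sema5a, Sema5b, Sema6d, Plxna1, Plxna4, Plxnb1, Robo1, Robo2, Slit2, Slit3, Ntn1, Ntn3, Ntn4 and Unc5c. Epha2 (-0.48 ± 0.23, adjusted p = 0.0786), Ephb4 (-0.15 ± 0.12, adjusted p = 0.294), Plxnc1 (-0.77 ± 0.45, adjusted p = 0.141) and Robo1 (0.29 ± 0.15, adjusted p = 0.0995) did not pass on the log2 scale. Of the wider pathway, a list of 56 co-receptors, other guidance genes and downstream effectors, 27 of 53 tested were higher and 17 lower. The neuropilin Nrp1, co-receptor of class 3 semaphorins, averaged 43.8 ± 19.2 TPM in mesoderm and 0.213 ± 0.030 in ES cells (SD, n = 3 each; log2 fold change 7.97 ± 0.48, adjusted p = 2.5e-06). Dscam and Nrp2 followed with 6.06 and 4.24 on the log2 scale. The largest falls in that list were of Dpysl3 (-3.47), a collapsin response mediator, Flrt2 (-2.84) and Rgma (-2.76), a ligand of neogenin. The mesoderm libraries also carried 826 to 1060 TPM of the epithelial markers, against 488 to 553 in ES cells. The higher sum came from Krt8, at 1007, 1017 and 804 TPM in mesoderm, against 21.8, 20.7 and 28.4 in ES cells. Cdh1 was lower in mesoderm, at 6.76, 16.7 and 5.1 TPM, against 462, 412 and 419. Epcam was lower too, at 14.2, 30.6 and 17.2 TPM, against 69.2, 55.9 and 41.7. The mesoderm libraries held 244 to 343 TPM of 4 smooth muscle markers, against 1.09 to 1.81 in ES cells. The part of such cells in these differences was not tested.

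The eHB lines were compared with Kdr-positive mesoderm to see which guidance genes mark the expandable state. Lower in eHBs were 6 of 8 ephrins, 3 of 4 Unc5 genes and 8 of 18 semaphorins tested. Sema6a, Sema4d, Ntn4 and Plxna3 were higher. Of 58 members tested, 8 were higher and 25 lower, against 23.5% and 23.1% of all genes; the members' median was -1.36 and that of all genes 0.05. The count of higher members rests on all mesoderm libraries: it was 3 without RB2, 5 without RB3 and 3 without RB4. The count over all genes fell in the same fits, from 3117 to 2217, 2300 and 2118.

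Of the ligands, Efna3, an ephrin of the A class, averaged 6.67 ± 3.53 TPM in eHBs (SD, n = 5) and 81.5 ± 21.1 in mesoderm (SD, n = 3; log2 fold change -3.91 ± 0.42, adjusted p = 0.000284). Efnb1 fell less, to 17.3, 31.4, 7.497, 10.9 and 14.8 TPM in eHBs, against 51.4, 32.9 and 37.2 in mesoderm (log2 fold change -1.65 ± 0.41, adjusted p = 0.0113). The vascular ligand Efnb2 varied with the line, at 19.5, 3.78, 34.7, 36.4 and 33.02 TPM in eHBs, against 19.2, 45.05 and 35.1 in mesoderm (log2 fold change -0.66 ± 0.61, adjusted p = 0.4), and the groups overlapped. Sema6a, a transmembrane ligand of A plexins, had 31.5, 19.7, 15.6, 17.02 and 20.2 TPM in eHBs, against 2.33, 3.74 and 2.50 in mesoderm (log2 fold change 2.55 ± 0.25, adjusted p = 0.00018), with every eHB line above every mesoderm library. Sema4d, known from lymphocytes and from the growth of vessels, had 10.4, 20.7, 24.4, 24.1 and 19.8 TPM in eHBs, against 3.90, 5.00 and 5.52 in mesoderm (log2 fold change 1.74 ± 0.31, adjusted p = 0.00283). Ntn4, a laminin-related netrin of basement membranes, had 29.5, 22.8, 1.53, 3.83 and 6.70 TPM in eHBs, against 0.407, 0.876 and 0.980 in mesoderm (log2 fold change 3.73 ± 1.02, adjusted p = 0.0178). The secreted Sema3g, known from arteries, had 1.95, 0.485, 1.67, 49.5 and 49.4 TPM in eHBs, against 0.397, 0.051 and 0.123 in mesoderm (log2 fold change 6.48 ± 2.05, adjusted p = 0.0311). For Ntn4 and Sema3g the lowest eHB line was far below the highest. The calls of both and of Plxnc1 were lost when any 1 mesoderm library was left out, and that of Sema3g also without the FL10 line. Among the lower ligands, Sema3b (-6.53), Sema7a (-5.84), Sema3e (-3.79), Sema3f (-3.27) and Efna1 (-3.91) stood out on the log2 scale. Slit3 missed the threshold (log2 fold change -3.84 ± 1.40, adjusted p = 0.0521). It had 0.316, 7.10, 0.032, 0.042 and 0.678 TPM in eHBs, where RB4.6.9 alone was above 1, against 17.5 to 20.5 in mesoderm, and it passed without that line (log2 fold change -6.39).

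Among the receptors, Unc5c had no counts in any eHB line, against 12.2, 2.29 and 3.25 TPM in mesoderm, and was at least 1580-fold lower, taking 3 counts over the group as the floor. Plxna4 had 0.023, 0.011, 0, 0.011 and 0.011 TPM in eHBs, against 3.92, 5.47 and 6.61 in mesoderm (log2 fold change -9.20 ± 0.58, adjusted p = 3.07e-05). Unc5a (-7.04 ± 0.62, adjusted p = 0.000115), Epha4, a receptor that binds ephrins of both classes (-7.73 ± 0.62, adjusted p = 7.7e-05), and Epha1 (-6.14 ± 0.69, adjusted p = 0.00033) were also lower in eHBs on the log2 scale, with no overlap between the groups. Plxna3, another neuropilin partner, was modestly higher, at 10.4, 9.66, 9.60, 10.96 and 10.9 TPM in eHBs, against 5.04, 5.88 and 4.66 in mesoderm (log2 fold change 0.67 ± 0.12, adjusted p = 0.00258). Ephb4 had 68.8, 52.02, 56.5, 49.3 and 50.1 TPM in eHBs and 49.5, 42.4 and 42.8 in mesoderm (log2 fold change -0.03 ± 0.13, adjusted p = 0.866). Robo1 (-0.16 ± 0.24, adjusted p = 0.601), Epha2 (0.57 ± 0.25, adjusted p = 0.0897) and Plxnb1 (0.32 ± 0.18, adjusted p = 0.176) did not pass either on the log2 scale. In the pathway list 17 of 54 tested were higher and 13 lower. Rnd2, a plexin partner, averaged 612 ± 212 TPM in eHBs (SD, n = 5) and 13.5 ± 6.70 in mesoderm (SD, n = 3; log2 fold change 5.14 ± 0.46, adjusted p = 0.00013). Vav3 and Dscaml1 were the next highest (3.81 and 3.43), and Ngef, Nrp1 and Dscam the lowest (-5.96, -5.94 and -4.63).

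Within the eHB group, several genes of the vascular pairs differed many-fold between lines. Plxnd1 had 14, 2.16, 49.7, 108 and 28.5 TPM, lowest in RB4.6.9 and highest in FL4 (log2 fold change -0.89 ± 0.92, adjusted p = 0.447 against mesoderm). Unc5b had 28.8, 143, 3.67, 2.18 and 2.28 TPM, highest in RB4.6.9, where it was close to the 144 to 174 of mesoderm (log2 fold change -2.53 ± 1.30, adjusted p = 0.142). Without RB4.6.9 that difference passed (log2 fold change -4.50). Plxnc1 had 43.4, 8.15, 14.05, 0.685 and 0.911 TPM, against 0.071, 0.336 and 0.214 in mesoderm (log2 fold change 5.67 ± 1.60, adjusted p = 0.0198), and stayed below 1 TPM in both fetal liver lines. Sema3g showed the reverse order, near 50 TPM in both fetal liver lines and below 2 in the others. As the 2 lines from ES cells were also the only ones in VEGF-containing medium, their shared high Unc5b and Ntn4 cannot be assigned to origin or medium.

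Endothelial cultures, 3 days after doxycycline was withdrawn, were set against their parental eHB lines to see which guidance genes accompany endothelial differentiation. Of 53 members tested, 26 were higher and 17 lower, against 34.3% and 35.6% of all genes, and the median was 1.44 over the members and -0.04 over all genes. The summed level of the semaphorins was 671.8 to 955.1 TPM in the cultures, against 73.75 to 145.2 in eHBs, and that of the Robo genes 396.4 to 630.9, against 10.3 to 19.05. The ephrins summed to 398.1 to 587.7 TPM in the cultures, against 90.94 to 110.5, and the plexins to 709.6 to 1364, against 272.8 to 362.6. The Eph receptors summed to 349.1 to 458.6 TPM, against 131 to 215.3, and the Slit genes to 15.83 to 64.94, against 1.253 to 9.517. The sums overlapped for the netrins, at 7.223 to 34.02 TPM against 2.169 to 35.09. They also overlapped for the Unc5 genes, at 109.5 to 219.9 against 2.267 to 143.2. By gene, 10 of 17 semaphorins were higher and 5 lower, 2 of 8 ephrins higher and 4 lower, 4 of 9 plexins higher and 5 lower, 4 of 9 Eph receptors higher and 3 lower, and all 3 Robo genes tested were higher.

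**Figure D3:**
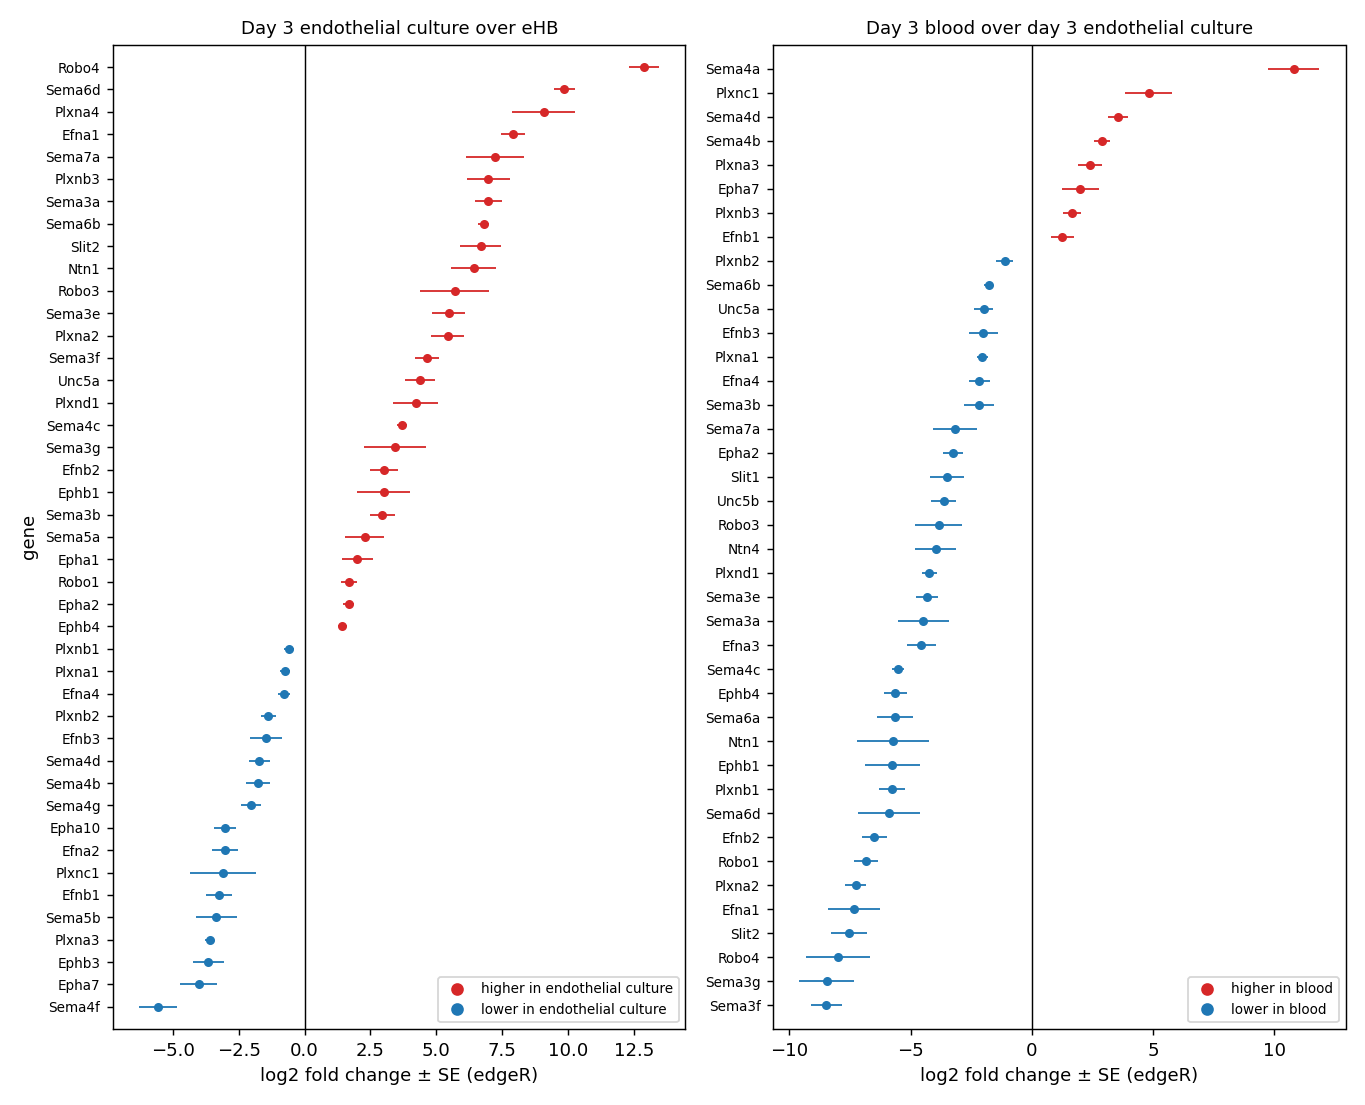
Log2 fold changes with their standard errors (horizontal axis, edgeR) of every member called in endothelial cultures over eHBs (left) and in day 3 blood over endothelial cultures (right). Robo4 (12.89) tops the left panel and Sema3f (-8.48) ends the right one; the fitted values of Plxnb3 on the left and Sema4a on the right rest on 2 and 1 counts in the lower group.

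Of the ephrins, Efna1, which binds Epha2 and is induced in angiogenic endothelium, had 285, 216, 247, 308 and 328 TPM in endothelial cultures, against 0.846, 1.78, 1.21, 0.285 and 1.72 in eHBs (log2 fold change 7.91 ± 0.44, adjusted p = 3e-07). Efnb2 had 272, 190.0, 126, 227 and 215 TPM in endothelial cultures, against 19.5, 3.78, 34.7, 36.4 and 33.02 in eHBs (log2 fold change 3.02 ± 0.53, adjusted p = 0.000529). Every culture exceeded every eHB line for both. Efnb1 fell to 0.620, 2.15, 2.13, 0.964 and 2.36 TPM in the cultures, against 17.3, 31.4, 7.497, 10.9 and 14.8 in eHBs (log2 fold change -3.25 ± 0.49, adjusted p = 0.000178), and Efna2 (-3.03), Efnb3 (-1.47) and Efna4 (-0.78) fell with it. The receptor of Efna1, Epha2, had 171, 175, 301, 204 and 239 TPM in endothelial cultures, against 68.4, 60.6, 52.5, 94.8 and 73.3 in eHBs (log2 fold change 1.67 ± 0.21, adjusted p = 5.32e-05). Ephb4, the venous receptor of Efnb2, had 158, 170.0, 85.3, 145 and 172 TPM in endothelial cultures, against 68.8, 52.02, 56.5, 49.3 and 50.1 in eHBs (log2 fold change 1.44 ± 0.18, adjusted p = 4.71e-05). Neither receptor overlapped between the groups. Another EphB receptor, Ephb3, fell to 0.686, 1.29, 1.53, 2.26 and 5.68 TPM in the cultures, against 25.6, 20.5, 15.5, 46.4 and 37.3 in eHBs (log2 fold change -3.65 ± 0.59, adjusted p = 0.000273).

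The secreted semaphorins of class 3 that were tested, Sema3a, Sema3b, Sema3e, Sema3f and Sema3g, were higher. Sema3g had 252, 149, 216, 262 and 246 TPM in endothelial cultures, against 1.95, 0.485, 1.67, 49.5 and 49.4 in eHBs (log2 fold change 3.44 ± 1.17, adjusted p = 0.0233), and both fetal liver lines had started from a higher level. Sema3f had 50.99, 72.1, 117, 26.6 and 65.03 TPM in endothelial cultures, against 2.42, 3.66, 2.64, 3.595 and 1.31 in eHBs (log2 fold change 4.65 ± 0.45, adjusted p = 8.35e-06). Sema3a, the classical repellent that acts through Nrp1, had 19.5, 15.7, 18.5, 10.54 and 9.56 TPM in endothelial cultures, against 0.056, 0.154, 0.158, 0.084 and 0.318 in eHBs (log2 fold change 6.96 ± 0.51, adjusted p = 1.3e-06). No culture overlapped an eHB line in any of the 3. Sema3e, which acts on Plxnd1 without a neuropilin, had 15.5, 6.27, 22.9, 28.8 and 20.3 TPM in endothelial cultures, against 0.158, 0.143, 0.853, 0.517 and 0.487 in eHBs (log2 fold change 5.46 ± 0.64, adjusted p = 3.1e-05), while Sema3c was too low to test. Its receptor Plxnd1 had 541, 556, 783, 843 and 1033 TPM in endothelial cultures, against 14, 2.16, 49.7, 108 and 28.5 in eHBs (log2 fold change 4.21 ± 0.86, adjusted p = 0.00134). The lowest culture was well above the highest eHB line. Plxna2, a receptor of class 3 and 6 semaphorins, had 84.7, 107, 210.0, 146 and 156 TPM in endothelial cultures, against 1.55, 2.90, 0.705, 5.02 and 6.26 in eHBs (log2 fold change 5.44 ± 0.63, adjusted p = 2.74e-05).

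Membrane-bound semaphorins split. Sema6d had 74.1, 99.8, 60.8, 63.99 and 126 TPM in endothelial cultures, against 0.113, 0.165, 0.074, 0.053 and 0.053 in eHBs (log2 fold change 9.86 ± 0.41, adjusted p = 9.96e-08). Sema4c, a ligand of Plxnb2, had 247, 251, 347, 204 and 267 TPM in endothelial cultures, against 23.4, 24.7, 14.54, 22.4 and 20.2 in eHBs (log2 fold change 3.69 ± 0.19, adjusted p = 2.02e-07). Sema7a, anchored by a lipid and known from immune cells and neurons, had 32.6, 7.27, 89.9, 6.44 and 7.49 TPM in endothelial cultures, against 0.090, 0.154, 0.053, 0.200 and 0.466 in eHBs (log2 fold change 7.23 ± 1.08, adjusted p = 0.000166), highest in RB3.6.5 and M5. Its receptor Plxnc1 fell to 0.577, 0.732, 5.34, 0.425 and 0.198 TPM in endothelial cultures, against 43.4, 8.15, 14.05, 0.685 and 0.911 in eHBs (log2 fold change -3.10 ± 1.26, adjusted p = 0.0489). The groups overlapped, and the call ended in 7 of the 10 fits that left out 1 library, with the smallest difference without the RB3.6.5 eHB library (log2 fold change -2.01). Sema4d had 2.05, 4.49, 7.74, 6.42 and 9.11 TPM in endothelial cultures, against 10.4, 20.7, 24.4, 24.1 and 19.8 in eHBs (log2 fold change -1.72 ± 0.40, adjusted p = 0.003). Its receptor Plxnb1 was slightly lower, at 10.7, 12.4, 9.44, 14.3 and 17.5 TPM in endothelial cultures, against 20.6, 23.1, 12.9, 21.1 and 20.6 in eHBs (log2 fold change -0.58 ± 0.19, adjusted p = 0.0199), with overlap, and the call ended without the RB3.6.5 or the M5 culture. Sema4b (log2 fold change -1.78 ± 0.45, adjusted p = 0.00506) and Sema4g (log2 fold change -2.03 ± 0.39, adjusted p = 0.000891) were lower as well. The plexin that leads in eHBs, Plxnb2, had 27.2, 36.9, 68.02, 62.1 and 84.96 TPM in endothelial cultures, against 123, 189, 118, 142 and 164 in eHBs (log2 fold change -1.37 ± 0.30, adjusted p = 0.00202). Plxna3 fell to 0.837 ± 0.194 TPM, against 10.3 ± 0.643 in eHBs (SD, n = 5 each; log2 fold change -3.60). Plxna4 rose unevenly, to 6.11, 9.27, 0.334, 1.46 and 12.2 TPM in endothelial cultures, against 0 to 0.023 in eHBs (log2 fold change 9.06).

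The Robo genes tested and Slit2, a ligand of Robo1, were higher. Robo4, a Robo of endothelium that is known for keeping vessels stable, had 419, 345, 504, 426 and 337 TPM in endothelial cultures, against 0.011, 0, 0.126, 0.116 and 0.032 in eHBs (log2 fold change 12.89 ± 0.57, adjusted p = 1.24e-07). Robo1, the broader receptor of Slit2, had 30.1, 40.1, 36.1, 34.9 and 80 TPM in endothelial cultures, against 12.9, 17.7, 9.01, 13.1 and 18.1 in eHBs (log2 fold change 1.68 ± 0.30, adjusted p = 0.00054). Slit2 had 15.2, 31.8, 26.6, 27.2 and 61.8 TPM in endothelial cultures, against 0.034, 0.154, 0.168, 0.559 and 0.678 in eHBs (log2 fold change 6.68 ± 0.79, adjusted p = 3.18e-05). None of the 3 overlapped between the groups, and only Robo1 was well expressed in eHBs. Robo3, known in mammals from commissural axons, was higher too, at 4.80, 11.4, 90.9, 17.2 and 32.5 TPM in endothelial cultures, against 0, 0.011, 1.15, 1.03 and 0.922 in eHBs (log2 fold change 5.69 ± 1.31, adjusted p = 0.00289), with M5 the highest.

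Of the netrin system, Ntn1 had 4.99, 5.51, 17.4, 1.90 and 4.75 TPM in endothelial cultures, against 0.011, 0.044, 0.147, 0.116 and 0.106 in eHBs (log2 fold change 6.42 ± 0.85, adjusted p = 6.73e-05). Ntn4 had 26.7, 16.8, 7.56, 5.21 and 18.1 TPM in endothelial cultures, against 29.5, 22.8, 1.53, 3.83 and 6.70 in eHBs (log2 fold change 0.29 ± 0.73, adjusted p = 0.737). Unc5b, the endothelial netrin receptor, had 219, 213, 108, 128 and 154 TPM in endothelial cultures, against 28.8, 143, 3.67, 2.18 and 2.28 in eHBs (log2 fold change 2.27 ± 1.10, adjusted p = 0.0889). Each culture had a value above that of its own eHB line, by the smallest ratio in RB4.6.9. With the line as a block the change passed (log2 fold change 4.23, adjusted p = 0.00803). The pathway list had 30 of 52 tested higher and 12 lower. Nrp1 averaged 232 ± 56.9 TPM in endothelial cultures and 0.888 ± 0.439 in eHBs (SD, n = 5 each; log2 fold change 8.07 ± 0.47, adjusted p = 3.77e-07), followed by Flrt1 (5.98) and Dpysl3 (5.24). Rnd2 averaged 12.8 ± 2.71 TPM in endothelial cultures and 612 ± 212 in eHBs (SD, n = 5 each; log2 fold change -5.54 ± 0.25, adjusted p = 1.38e-07); Pdzrn3 (-5.95) and Dpysl5 (-5.50) were the other large falls.

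In the blood direction, the VE-cadherin-positive, CD45-negative cells of day 2 had less Efnb2, Sema6a, Robo1 and Plxnb1 than eHBs, and more Sema7a, Sema4d and Robo4. Of 51 members tested, 11 were higher and 16 lower, against 28.5% and 25.5% of all genes; the members' median was -1.07 and that of all genes 0.01. Erythroid genes summed to 2250 to 43100 TPM in day 2 blood, against 1.51 to 32.7 in eHBs, and their part in the results was not tested. The split depends on scaling: on log2(TPM + 1) the median of all genes was -0.61 and the members counted 3 higher and 18 lower. Of all 11093 genes tested on that scale, 1527 were higher and 5650 lower. TPM ratios therefore look lower than the fold changes from counts, which are relative to the typical gene. The same scaling moved the median of all genes to -0.31 in mesoderm over ES cells, 0.31 in eHBs over mesoderm and -0.38 in day 3 blood over endothelial cultures.

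Of the ligands, Efnb2 had 0.551, 1.97, 0.976, 0.790 and 2.53 TPM in day 2 blood, against 19.5, 3.78, 34.7, 36.4 and 33.02 in eHBs (log2 fold change -3.64 ± 0.61, adjusted p = 0.000982). Sema6a had 0.776, 3.14, 0.620, 0.922 and 1.49 TPM in day 2 blood, against 31.5, 19.7, 15.6, 17.02 and 20.2 in eHBs (log2 fold change -3.32 ± 0.38, adjusted p = 0.000153). Neither gene overlapped between the groups. Efna3 (log2 fold change -3.31 ± 0.56, adjusted p = 0.000957) fell alongside, as did Sema3g (log2 fold change -3.84 ± 1.25, adjusted p = 0.0245), whose call was lost with the line as a block (log2 fold change -1.81, adjusted p = 0.344). Higher ligands were fewer. Sema7a had 10.4, 63.8, 5.69, 1.42 and 44.98 TPM in day 2 blood, against 0.090, 0.154, 0.053, 0.200 and 0.466 in eHBs (log2 fold change 7.46 ± 1.09, adjusted p = 0.000466), with a wide spread between lines. Sema4d had 40.9, 19.2, 93.5, 24.7 and 33.6 TPM in day 2 blood, against 10.4, 20.7, 24.4, 24.1 and 19.8 in eHBs (log2 fold change 1.89 ± 0.52, adjusted p = 0.0118), and the groups overlapped. Sema3e passed narrowly (log2 fold change 2.27 ± 0.76, adjusted p = 0.0283) and was lost with the line as a block (log2 fold change 2.21, adjusted p = 0.0973). The calls of Sema3e and Sema3g were also lost in several fits that left out 1 library. Efna1 (1.07 ± 0.82, adjusted p = 0.287), Sema3f (-0.49 ± 0.49, adjusted p = 0.421), Slit2 (2.34 ± 1.16, adjusted p = 0.109), Slit3 (0.33 ± 1.27, adjusted p = 0.841) and Ntn4 (-1.45 ± 0.88, adjusted p = 0.182) did not pass on the log2 scale.

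Of the receptors, Robo1 had 0.327, 1.39, 0.081, 0.091 and 0.645 TPM in day 2 blood, against 12.9, 17.7, 9.01, 13.1 and 18.1 in eHBs (log2 fold change -4.28 ± 0.65, adjusted p = 0.000568). Robo4 had 3.87, 32.1, 1.82, 0.415 and 9.00 TPM in day 2 blood, against 0.011, 0, 0.126, 0.116 and 0.032 in eHBs (log2 fold change 7.80 ± 1.33, adjusted p = 0.00101). The 6 endothelial markers summed to 148 to 1090 TPM in day 2 blood, against 118 to 348 in eHBs, but did not move together. Pecam1 rose in every line. Tek fell in every line, from 81.4, 116, 61.05, 48.8 and 55.04 TPM to 14.9, 62.5, 30.6, 3.18 and 17.9. Cdh5, Tie1, Emcn and Esam varied with the line. The part of these markers in the Robo4 result was not tested. Plxnb1, receptor of Sema4d, had 0.418, 2.62, 0.071, 0.223 and 2.81 TPM in day 2 blood, against 20.6, 23.1, 12.9, 21.1 and 20.6 in eHBs (log2 fold change -3.52 ± 0.76, adjusted p = 0.0036). Ligand and receptor of that pair moved in opposite directions. Ephb3 (log2 fold change -3.38 ± 0.60, adjusted p = 0.00134) and Epha2 (log2 fold change -1.40 ± 0.43, adjusted p = 0.0193) fell. Ephb4 had 10.2, 47.2, 4.99, 9.52 and 22.5 TPM in day 2 blood, against 68.8, 52.02, 56.5, 49.3 and 50.1 in eHBs (log2 fold change -1.02 ± 0.43, adjusted p = 0.0655). With the line as a block it passed (log2 fold change -1.32, adjusted p = 0.0306). Plxnc1 likewise passed only with the block (log2 fold change 1.81, adjusted p = 0.0198; log2 fold change 0.98 ± 1.05, adjusted p = 0.447 without it). Plxnd1 (log2 fold change 1.54 ± 0.77, adjusted p = 0.113) and Unc5b (log2 fold change -2.39 ± 1.12, adjusted p = 0.0938) did not pass, and Ntn1, Sema3a and Sema3c were too low to test. In the pathway list 8 of 50 tested were higher, led by Draxin (7.00), Fes (4.99), a kinase of myeloid cells, and Rras (2.27), and 21 were lower, led by Pdzrn3 (-5.45), Dpysl4 (-3.98) and Neo1 (-3.49), the receptor neogenin.

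Between day 2 and day 3 of the blood cultures fewer genes were called than in the other comparisons, among the members and among all genes. Of 47 members tested, Sema4a was higher at day 3 and 6 were lower, against 7.31% higher and 2.87% lower of all genes; the members' median was -0.87 and that of all genes -0.05. With the line as a block 2 members were higher and 7 lower, and on log2(TPM + 1) 2 were higher and 3 lower. For all genes the block gave 946 higher and 386 lower, and log2(TPM + 1) gave 684 and 158. Leaving out 1 day 3 library cut the 6 lower members to 2 (M5), 2 (FL4) or 1 (FL10). Without RB3.6.5 at day 3, which stood apart, 1 member was higher and 8 lower. Lower calls over all genes moved in the same fits, from 347 to 103 (M5), 123 (FL4), 107 (FL10) and 779 (RB3.6.5). Marker sums also differed. Erythroid genes summed to 256 to 8520 TPM at day 3, against 2250 to 43100 at day 2. The macrophage list summed to 68.8 to 261 TPM at day 3, against 2.42 to 9.73 at day 2. Its rise lay mainly in Csf1r and Cd68. C1qa had 0 TPM in every blood culture library, C1qb reached at most 0.543 TPM, and Mrc1 was lower at day 3 in RB4.6.9 and FL10. The part of these markers in the results was not tested. Sema4a, a semaphorin of immune cells, had 3.51, 2.47, 19.7, 19.3 and 12.02 TPM at day 3, against 0.653, 0.102, 0.671, 0.689 and 1.15 at day 2 (log2 fold change 3.95 ± 0.75, adjusted p = 0.0101), lowest at day 3 in both ES-derived lines. Ephb4 had 2.40, 4.89, 1.07, 1.10 and 1.91 TPM at day 3, against 10.2, 47.2, 4.99, 9.52 and 22.5 at day 2 (log2 fold change -3.04 ± 0.61, adjusted p = 0.0129), and fell in every line. Plxnb2 had 19.9, 10.7, 20.9, 19.6 and 24.5 TPM at day 3, against 27.4, 35.8, 50.04, 43.6 and 53.7 at day 2 (log2 fold change -1.25 ± 0.32, adjusted p = 0.0335). Plxnd1 (log2 fold change -1.41 ± 0.32, adjusted p = 0.0235) and Sema3f (log2 fold change -3.11 ± 0.70, adjusted p = 0.0212) were lower. So were Efna2 (log2 fold change -3.68 ± 0.95, adjusted p = 0.0363) and Sema7a (log2 fold change -3.30 ± 0.92, adjusted p = 0.047). The call of Sema7a was lost under the block for line (log2 fold change -2.71, adjusted p = 0.068), and the calls of Plxnb2, Plxnd1, Sema3f and Sema7a were each lost in some fits that left out 1 library. Sema4d did not pass, with 68.1, 56.2, 51.8, 45.2 and 36.03 TPM at day 3, against 40.9, 19.2, 93.5, 24.7 and 33.6 at day 2 (log2 fold change 0.09 ± 0.51, adjusted p = 0.93). The other genes of the vascular pairs that were tested ranged from -3.09 (Slit2, adjusted p = 0.139) to 1.13 (Unc5b, adjusted p = 0.197) on the log2 scale and did not pass. In the pathway list, Fes averaged 116 ± 51.4 TPM at day 3 and 3.20 ± 1.67 at day 2 (SD, n = 5 each; log2 fold change 5.00 ± 0.51, adjusted p = 0.000924). Pak1 (2.22) and Trio (1.22) rose, and Rnd2 (-2.23) fell, out of 47 tested.

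Set against each other at day 3, blood and endothelium from the same lines differed in 40 of 52 members tested. In blood 8 were higher and 32 lower, against 31.1% and 30.2% of all genes, and the members' median log2 fold change was -2.36, that of all genes 0.02. Without the RB3.6.5 library of day 3 blood, 7 members were higher and 36 lower. For all genes, 3932 higher and 3826 lower became 4318 and 4320 in that fit. The endothelial cultures are also the upper group of the comparison with eHBs above, so the falls given here and the rises given there share those libraries. Robo genes were lower in 3 of 3 tested, Slit genes in 2 of 2, semaphorins in 10 of 16 with 3 higher, plexins in 5 of 9 with 3 higher, and ephrins in 5 of 8 with 1 higher.

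The genes higher in blood were Sema4a, Sema4d, Sema4b, Plxnc1, Plxna3, Plxnb3, Epha7 and Efnb1. Sema4d had 68.1, 56.2, 51.8, 45.2 and 36.03 TPM in day 3 blood, against 2.05, 4.49, 7.74, 6.42 and 9.11 in endothelial cultures (log2 fold change 3.55 ± 0.43, adjusted p = 6.39e-05). Sema4b had 16.4, 15.9, 22.6, 25.4 and 17.8 TPM in day 3 blood, against 1.98, 1.72, 5.26, 3.54 and 4.94 in endothelial cultures (log2 fold change 2.89 ± 0.35, adjusted p = 6.04e-05). All 5 blood libraries exceeded all 5 endothelial ones in both. Sema4a had 3.51, 2.47, 19.7, 19.3 and 12.02 TPM in day 3 blood, from 1951 counts, against 1 count in all endothelial cultures together. With counts divided by the summed library totals of their group, the ratio was 3770, with a 95% counting interval of 676 to 149000. Plxnc1, the Sema7a receptor known from white blood cells, had 39.6, 36, 43.1, 21.1 and 9.79 TPM in day 3 blood, against 0.577, 0.732, 5.34, 0.425 and 0.198 in endothelial cultures (log2 fold change 4.82 ± 0.97, adjusted p = 0.00164). Its ligand Sema7a was lower in blood, at 4.25, 3.03, 2.16, 0.811 and 1.22 TPM, against 32.6, 7.27, 89.9, 6.44 and 7.49 in endothelial cultures (log2 fold change -3.17 ± 0.90, adjusted p = 0.0111). Likewise Plxnb1, the receptor of Sema4d, had 0.235, 0.113, 0.052, 0.114 and 0.406 TPM in day 3 blood, against 10.7, 12.4, 9.44, 14.3 and 17.5 in endothelial cultures (log2 fold change -5.76 ± 0.54, adjusted p = 1.29e-05). In both pairs one partner was high in blood and the other in endothelium.

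Lower in blood were most genes of the vascular pairs. Sema3f had 0.285, 0.236, 0.084, 0.031 and 0.125 TPM in day 3 blood, against 50.99, 72.1, 117, 26.6 and 65.03 in endothelial cultures (log2 fold change -8.48 ± 0.63, adjusted p = 3.19e-06). Sema3g (-8.46 ± 1.14, adjusted p = 0.000124), Slit2 (-7.53 ± 0.75, adjusted p = 1.78e-05) and Plxna2 (-7.26 ± 0.43, adjusted p = 1.09e-06), given as log2 fold changes, were below 2 TPM in every blood library. Robo4 had 3.38, 1.67, 0.679, 0 and 0 TPM in day 3 blood, against 419, 345, 504, 426 and 337 in endothelial cultures (log2 fold change -7.99 ± 1.33, adjusted p = 0.000486). Efna1 had 4.84, 0.935, 0.658, 0 and 0.219 TPM in day 3 blood, against 285, 216, 247, 308 and 328 in endothelial cultures (log2 fold change -7.33 ± 1.06, adjusted p = 0.000195). In Robo4, Efna1 and Sema3g the RB3.6.5 blood library was the highest. Efnb2 (-6.50) and Ephb4 (-5.62), Robo1 (-6.83), Sema3e (-4.33) and Plxnd1 (-4.23), Epha2 (-3.25), Unc5b (-3.64), Ntn1 (-5.71), Ntn4 (-3.96) and Sema3a (-4.48) were lower in blood too, given as log2 fold changes. Plxnd1 and Epha2 nevertheless stayed measurable in every day 3 blood library, Plxnd1 at 27.9, 32.6, 46.4, 21.8 and 21.6 TPM and Epha2 at 10.2, 27.5, 24.8, 5.29 and 20.8 TPM. Of the pathway list, 8 of 50 tested were higher in blood, led by Fes (5.66), Enah (3.62) and Dscam (3.39), and 32 lower, led by Flrt1 (-9.63), Crmp1 (-8.57) and Nrp1 (-7.75).

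The single HSC library, which has no replicate check, held several guidance genes at levels that the day 3 blood cultures did not reach. Robo4 was at 65.3 TPM in HSCs, against 0 to 3.38 over the 5 day 3 blood libraries, Efna1 at 24.8, against 0 to 4.84, and Slit2 at 17.4, against 0 to 0.302. Plxnc1 was at 72.9 TPM in HSCs, against 9.79 to 43.1 in day 3 blood, and Plxnd1 at 70.5, against 21.6 to 46.4. Sema4d lay just below the blood range, at 33.9 TPM in HSCs, against 36.03 to 68.1 in day 3 blood. Epha2 lay below the blood range, at 1.15 TPM in HSCs, against 5.29 to 27.5 in day 3 blood, as did Unc5b, at 0.259 in HSCs, against 1.91 to 16.8. Robo4 is known as a marker and homing receptor of HSCs in mice. The endothelial markers summed to 700.0 TPM in HSCs, against 185 to 564 in day 3 blood. Tie1, Tek, Emcn and Esam were above the blood range. Pecam1 was below it, at 80.4 TPM in HSCs, against 103 to 259 in day 3 blood. Cdh5 was within it, at 23.6 TPM in HSCs, against 17.4 to 102.

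How close the cultured endothelium came to endothelium made in the embryo was asked by setting the endothelial cultures against embryo endothelium of E11.5. Of 60 members tested, 14 were higher and 14 lower in the cultures, against 22% and 23.4% of all genes. The members' shares were close to those of all genes. Their median was 0.11, that of all genes 0.02. The count of higher members fell to 4 without the first embryo library and to 9 without the second, and to 8 when all 9 groups were fitted together. The count over all genes fell in the same fits, from 3025 to 1570, 1880 and 2596.

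**Figure D4:**
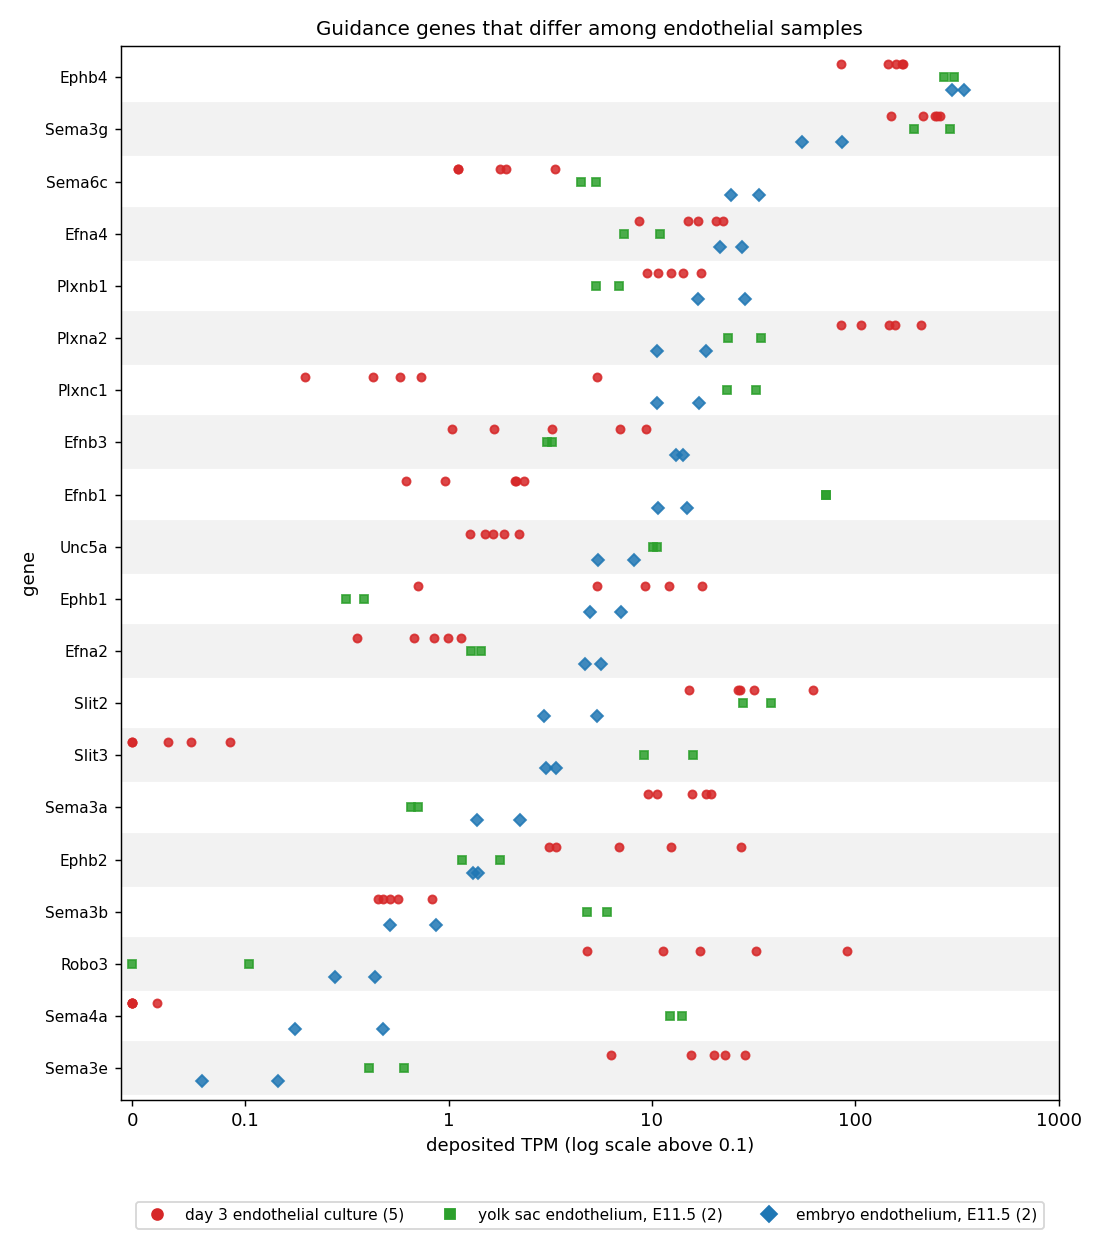
Deposited TPM (horizontal axis, linear up to 0.1 and logarithmic above) of 20 genes named in the comparisons with embryo endothelium, in 5 endothelial cultures, 2 yolk sac and 2 embryo endothelium libraries. Sema3e and Robo3 are high in the cultures and low in both sorted endothelia, Slit2 and Sema3g are high in cultures and yolk sac, and Sema4a, Sema3b and Efnb1 stand out in the yolk sac.

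Several members that are strong in endothelium did not pass. Robo4 averaged 406 ± 68.1 TPM in cultures (SD, n = 5) and 293 ± 94.95 in embryo endothelium (SD, n = 2; log2 fold change 0.48 ± 0.21, adjusted p = 0.101). Efna1 averaged 277 ± 45.4 TPM in cultures and 364 ± 8.80 in embryo endothelium (log2 fold change -0.41 ± 0.17, adjusted p = 0.0844). Unc5b averaged 164 ± 49.8 TPM in cultures and 130.3 ± 41.4 in embryo endothelium (log2 fold change 0.34 ± 0.31, adjusted p = 0.4). By log2 fold change, Plxnd1 (-0.75 ± 0.27, adjusted p = 0.057), Robo1 (0.30 ± 0.42, adjusted p = 0.593) and Sema3f (1.33 ± 0.54, adjusted p = 0.0786) did not pass. Nor did Sema4d (0.55 ± 0.54, adjusted p = 0.434) and Sema7a (-0.79 ± 1.05, adjusted p = 0.57) on that scale. Ntn1 missed the threshold (log2 fold change 2.51 ± 0.89, adjusted p = 0.0519), though every culture was above both embryo libraries.

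Several secreted ligands were higher in the cultures. Sema3e had 15.5, 6.27, 22.9, 28.8 and 20.3 TPM in endothelial cultures, against 0.062 and 0.145 in embryo endothelium (log2 fold change 7.55 ± 0.83, adjusted p = 0.000745). Slit2 had 15.2, 31.8, 26.6, 27.2 and 61.8 TPM in endothelial cultures, against 2.94 and 5.35 in embryo endothelium (log2 fold change 2.99 ± 0.59, adjusted p = 0.00595). Sema3a had 19.5, 15.7, 18.5, 10.54 and 9.56 TPM in endothelial cultures, against 2.26 and 1.38 in embryo endothelium (log2 fold change 2.94 ± 0.48, adjusted p = 0.00279). The lowest culture exceeded the higher embryo library in all 3. Sema3g (1.68 ± 0.25, adjusted p = 0.00197), Ntn4 (2.76 ± 0.71, adjusted p = 0.0165) and, with overlap, Efnb2 (0.91 ± 0.29, adjusted p = 0.0359) were also higher on the log2 scale. Of the receptors, Robo3 had 4.80, 11.4, 90.9, 17.2 and 32.5 TPM in endothelial cultures, against 0.278 and 0.434 in embryo endothelium (log2 fold change 6.49 ± 1.51, adjusted p = 0.0116). Plxna2 had 84.7, 107, 210.0, 146 and 156 TPM in endothelial cultures, against 10.6 and 18.3 in embryo endothelium (log2 fold change 3.30 ± 0.44, adjusted p = 0.00135). Epha2 (log2 fold change 1.21 ± 0.27, adjusted p = 0.00987) and Ephb2 (log2 fold change 2.94 ± 1.00, adjusted p = 0.0462) followed. The calls of Epha2 and Slit2 ended without the first embryo library, and those of Robo3, Ephb2, Ntn4 and Efnb2 without either one.

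Ephb4 was lower in the cultures than in embryo endothelium, at 158, 170.0, 85.3, 145 and 172 TPM, against 299 and 342 (log2 fold change -1.14 ± 0.25, adjusted p = 0.00879), a call that ended without the first embryo library. Efnb1 had 0.620, 2.15, 2.13, 0.964 and 2.36 TPM in endothelial cultures, against 10.7 and 14.8 in embryo endothelium (log2 fold change -2.94 ± 0.51, adjusted p = 0.00359). Plxnc1 had 0.577, 0.732, 5.34, 0.425 and 0.198 TPM in endothelial cultures, against 10.6 and 17 in embryo endothelium (log2 fold change -3.21 ± 1.10, adjusted p = 0.0477). Leukocyte markers moved with Plxnc1, at 1.34 to 17.7 TPM in the cultures, against 142 to 222 in embryo endothelium, and macrophage markers at 7.90 to 25.3, against 177 to 274; their part in the result was not tested. Erythroid genes were also apart, at 2.14 to 1500 TPM in the cultures, against 1790 to 20900 in embryo endothelium, and their part in this comparison was not tested. Sema6c, a transmembrane semaphorin, had 1.92, 1.12, 1.11, 3.34 and 1.799 TPM in endothelial cultures, against 24.5 and 33.8 in embryo endothelium (log2 fold change -4.02 ± 0.41, adjusted p = 0.000647). Efna2 (-2.70 ± 0.46, adjusted p = 0.00326), Unc5a (-1.98 ± 0.29, adjusted p = 0.0018), Slit3 (-6.50 ± 0.98, adjusted p = 0.002) and Plxnb1 (-0.81 ± 0.25, adjusted p = 0.0327) were lower too on the log2 scale. The calls of Plxnc1 and Plxnb1 ended without either embryo library. In the pathway list 21 of 54 tested were higher, led by Flrt1 (7.91), Rnd3 (5.33), with 239.8 ± 37.2 TPM in cultures (SD, n = 5) and 5.90 ± 0.190 in embryo endothelium (SD, n = 2), and Grip1 (3.31), and 10 lower, led by Fes (-4.80), Ntng2 (-3.80) and Flrt2 (-2.95).

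Yolk sac and embryo endothelium of the same embryonic day were compared to see whether guidance genes mark the site of a vessel. Of 59 members tested, 17 were higher and 10 lower in yolk sac, against 15.9% and 8.54% of all genes; the members' median was 0.15 and that of all genes -0.03. With 2 libraries in each group, the 17 and 10 became 12 and 6 on log2(TPM + 1), and 2 and 0 when the spread was estimated over all 9 groups. Markers of other cells moved with this comparison: mesenchymal genes summed to 494 to 583 TPM in yolk sac, against 16.9 to 22.9 in embryo endothelium. Smooth muscle genes summed to 161 to 178 TPM in yolk sac, against 14.8 to 18.7, and macrophage genes to 655 to 664, against 177 to 274. The macrophage difference lay in Mrc1, at 498 and 336 TPM in yolk sac, against 19.7 and 39.5 in embryo endothelium. Csf1r, C1qa, C1qb and Cd68 overlapped between the groups. Erythroid genes summed to 3790 to 8120 TPM in yolk sac, against 1790 to 20900 in embryo endothelium. The part of these and of the epithelial genes given above was not tested.

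Of the ligands, Sema4a had 14 and 12.3 TPM in yolk sac, against 0.175 and 0.475 in embryo endothelium (log2 fold change 5.38 ± 0.39, adjusted p = 7.73e-06). Efnb1 had 71.3 and 72.04 TPM in yolk sac, against 10.7 and 14.8 in embryo endothelium (log2 fold change 2.46 ± 0.19, adjusted p = 1.18e-05). Slit2 had 38.6 and 27.97 TPM in yolk sac, against 2.94 and 5.35 in embryo endothelium (log2 fold change 2.99 ± 0.26, adjusted p = 2.1e-05). Slit3 had 15.9 and 9.17 TPM in yolk sac, against 3.02 and 3.37 in embryo endothelium (log2 fold change 1.92 ± 0.27, adjusted p = 0.00054). Both Slit genes were higher in the yolk sac, while of the Robo genes Robo1 (log2 fold change 0.15 ± 0.26, adjusted p = 0.723) and Robo4 (log2 fold change 0.19 ± 0.23, adjusted p = 0.591) did not pass. Sema3g had 292 and 195 TPM in yolk sac, against 54.6 and 86.1 in embryo endothelium (log2 fold change 1.76 ± 0.24, adjusted p = 0.000485). Sema3b (3.04 ± 0.39, adjusted p = 0.000321), Ntn4 (1.75 ± 0.30, adjusted p = 0.00176) and Sema3f (0.62 ± 0.18, adjusted p = 0.0336) were higher as well on the log2 scale. Plxnc1 was the one receptor of the vascular pairs that was (log2 fold change 0.99 ± 0.22, adjusted p = 0.00837). The call of Plxnc1 was lost without the first yolk sac library (log2 fold change 0.79). That of Sema3f was lost without either yolk sac library, without the first embryo library, and with the replicate number as a block (adjusted p = 0.0879).

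Lower in yolk sac was the receptor Ephb1, with 0.383 and 0.313 TPM, against 4.98 and 7.03 in embryo endothelium (log2 fold change -4.25 ± 0.35, adjusted p = 1.8e-05). The ligand Sema6c had 5.29 and 4.48 TPM in yolk sac, against 24.5 and 33.8 in embryo endothelium (log2 fold change -2.61 ± 0.21, adjusted p = 1.5e-05). Among ephrins, Efnb3 (-2.16 ± 0.24, adjusted p = 0.000128), Efna2 (-1.95 ± 0.37, adjusted p = 0.00366) and Efna4 (-1.47 ± 0.28, adjusted p = 0.00339) were lower on the log2 scale. Plxnb1 had 6.90 and 5.29 TPM in yolk sac, against 16.9 and 28.7 in embryo endothelium (log2 fold change -1.93 ± 0.23, adjusted p = 0.000171). On the log2 scale, Sema3a (-1.53 ± 0.44, adjusted p = 0.0303), Epha2 (-0.67 ± 0.19, adjusted p = 0.0287) and Sema7a (-0.70 ± 0.19, adjusted p = 0.0236) passed more narrowly. Each of these 3 calls ended in some fits that left out 1 library, and with the replicate number as a block those of Epha2 (adjusted p = 0.0705) and Sema7a (adjusted p = 0.0521) ended too. The arterial and venous pair was not called: Efnb2 had 172 and 139 TPM in yolk sac, against 83.6 and 137 in embryo endothelium (log2 fold change 0.47 ± 0.21, adjusted p = 0.148). Ephb4 had 305 and 272 TPM in yolk sac, against 299 and 342 in embryo endothelium (log2 fold change -0.20 ± 0.21, adjusted p = 0.553). Efna1 (-0.07 ± 0.19, adjusted p = 0.831), Plxnd1 (-0.46 ± 0.29, adjusted p = 0.299), Sema4d (0.46 ± 0.30, adjusted p = 0.313), Ntn1 (-0.23 ± 0.41, adjusted p = 0.738) and Unc5b (0.09 ± 0.23, adjusted p = 0.826) did not pass on the log2 scale. In the pathway list 6 of 50 tested were higher, led by Flrt3 (3.05), Rnd3 (2.53) and Rnd2 (1.00), and 6 lower, led by Dpysl4 (-3.72), Ntng2 (-3.34) and Dpysl5 (-3.15).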

How the data were processed

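Gene-level RNA-seq of 31 mouse libraries was analysed from a table of expected counts and a table of TPM. Per the submitters' processing notes, the authors used CASAVA 1.8.2, Bowtie 0.12.9 and RSEM 1.2.3 on mm10; the strand setting is not given in the sources used here. The deposited expected counts are RSEM's estimates per gene, not normalized, and were rounded to whole numbers. The deposited TPM are the authors' length-scaled abundances and serve as levels here. The guidance genes and the pathway list of 56 genes were chosen with earlier results of these data known.

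Each of the 8 comparisons was fitted on its own groups with edgeR 4.0.16 (quasi-likelihood F test, robust, TMM scaling, filterByExpr) in R 4.3.3, over all genes that passed the filter. The p-values were adjusted by Benjamini-Hochberg with a threshold of 0.05, and SEs were derived from the F statistic. Alternatives used RLE factors, DESeq2 1.42.0, limma 3.58.1 on log2(TPM + 1) and log2(TPM + 0.1), no filter, a test against a 2-fold change, all 9 groups in one fit, the replicate block, and each library left out. Named genes were the vascular ligand and receptor pairs, up to 6 called members per direction whose groups did not overlap and whose higher group averaged at least 5 TPM, and the leading member of each family in each group; in the pathway list up to 3 per direction were named. Some further genes were named after their values were seen.

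Lines with the same name pair the eHB-derived groups, since they are the same cell line, and their deviations correlated at 0.125 to 0.663; mesoderm and ES libraries share the ES line and correlated at -0.061 to 0.052. Across 48 pairs of libraries of 1 group the mean chi-square over genes was 4.16 to 568, and none looked like a repeat deposit. On simulated counts with genes changed by 2 on the log2 scale, the edgeR fit recovered 97.4% of them in mesoderm over ES cells (13330 genes) and 56.2% in endothelial cultures over embryo endothelium (13403 genes). The share of false calls ran from 1.55% in day 2 blood over eHBs to 6.86% in mesoderm over ES cells. It was 6% in eHBs over mesoderm and 6.38% in yolk sac over embryo endothelium. Library totals of 9424412 to 79497758 set the precision, and counting intervals cover counting error only.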

Additional observations from a re-analysis of the deposited data

Results flagged for a closer look

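In 6 of 58 groups of 5 libraries in which a gene named by the rule averaged at least 5 TPM, 1 library stood apart from the others of its group; chance alone gives about 1 in 20 groups. Ntn1 was 17.404 TPM in the M5 endothelial culture, against 1.896 to 5.509 in the others. Robo1 was 79.998 TPM in the FL10 endothelial culture, against 30.06 to 40.09. Robo4 was 32.062 TPM in day 2 blood of RB4.6.9, against 0.415 to 8.997. Among eHB lines, Unc5b was 143.03 TPM in RB4.6.9, against 2.182 to 28.85, Sema6a was 31.486 TPM in RB3.6.5, against 15.59 to 20.16, and Plxnb1 was 12.856 TPM in M5, against 20.55 to 23.14.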

How the results depend on the processing

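No named gene reversed direction under an alternative where it was called in the main fit or in that alternative. Sign changes of genes called in neither fit were not counted as reversals. Of the counts of members, 216 kept their size within 1.5 times, 27 were smaller and 11 larger. The counts over all genes also moved with the setting and are given beside those of the members. Against a 2-fold change, the higher members numbered 2 in eHBs over mesoderm, 5 in day 3 blood over endothelial cultures, 7 in endothelial cultures over embryo endothelium and 7 in yolk sac over embryo endothelium. For all genes the higher ones numbered 827, 1812, 746 and 1056 in the same order. The lower members numbered 10 in endothelial cultures over eHBs, 10 in day 2 blood over eHBs, 1 in day 3 over day 2 blood, 9 in endothelial cultures over embryo endothelium and 5 in yolk sac over embryo endothelium. For all genes the lower ones numbered 2114, 761, 12, 1285 and 318. With all 9 groups in one fit, 20 members were higher in day 2 blood over eHBs, 3 higher and 18 lower in day 3 over day 2 blood, 8 higher in endothelial cultures over embryo endothelium, and 2 higher and 0 lower in yolk sac over embryo endothelium. For all genes these counts were 4360, 1759 and 1915, 2596, and 468 and 122. On log2 TPM with either pseudocount, 3 were higher in day 2 blood over eHBs, 2 higher and 3 lower in day 3 over day 2 blood and 6 lower in yolk sac over embryo endothelium, where 11 were higher with a pseudocount of 0.1. DESeq2 called 3 higher and 15 lower in day 3 over day 2 blood. Leaving out 1 library gave 3 to 10 higher members in eHBs over mesoderm, 1 to 2 higher and 1 to 8 lower in day 3 over day 2 blood, and 4 to 15 higher in endothelial cultures over embryo endothelium. For all genes these ranges were 2118 to 3186, 554 to 1151 and 103 to 779, and 1570 to 3100. With the replicate block, 2 members were higher in day 3 over day 2 blood, against 946 of all genes. In yolk sac over embryo endothelium, whose samples share only a number (correlation -0.081), the block gave 17 members higher and 9 lower. For all genes it gave 2011 higher and 963 lower there. Calls of named genes that changed with the block stand beside their results. No paired analysis was possible for eHBs over mesoderm and endothelial cultures over embryo endothelium because they share no replicate numbers. The cause of these shifts was not tested. Groups of 1 or 2 libraries and members under 1 TPM limit what the depth can show.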

Other observations

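Some guidance genes outside the vascular pairs, chosen after their values were seen, were higher in both directions of differentiation than in eHBs; the 2 comparisons share the eHB libraries. Sema6b, a transmembrane semaphorin, had 32.2, 37.2, 41.2, 36.9 and 33.4 TPM in endothelial cultures and 3.37, 7.19, 1.42, 1.22 and 4.62 in day 2 blood, against 0.361, 0.474, 0.347, 0.232 and 0.286 in eHBs (log2 fold change 6.79 ± 0.20, adjusted p = 2.57e-08 in endothelial cultures; log2 fold change 3.96 ± 0.47, adjusted p = 0.00019 in day 2 blood). Unc5a, a netrin receptor whose span overlaps that of Hk3 on the other strand, so that some reads may be shared, had 1.27, 1.66, 1.52, 2.22 and 1.87 TPM in endothelial cultures and 0.592, 2.52, 0.193, 1.03 and 2.83 in day 2 blood, against 0.011, 0.143, 0.042, 0.053 and 0.148 in eHBs (log2 fold change 4.37 ± 0.57, adjusted p = 5.58e-05 in endothelial cultures; log2 fold change 4.604 ± 0.81, adjusted p = 0.0012 in day 2 blood). The eHB libraries lay below both groups for either gene. Plxnb3, a receptor of Sema5a, had 306 counts in endothelial cultures and 815 in day 2 blood, against 2 in eHBs. With counts divided by the summed library totals of their group, the ratio to eHBs was 137 in endothelial cultures (95% counting interval 37.7 to 1140). In day 2 blood it was 637 (176 to 5270).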
